A study of Rattus norvegicus with 10 samples.

Results

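Macrophage genes and the genes of the CSF1 receptor axis were followed in RNA from rat kidney cortex. The set holds 10 genes of the 32545 in the deposited table, chosen by exact symbol: the receptor Csf1r, its ligands Csf1 and Il34, and the markers Adgre1, Cd68, Aif1, Lyz2, Itgam, Mrc1 and Cd163. Each symbol had 1 row. All rats were wild type animals of the Dahl salt-sensitive strain SS/JrHsdMcwi, an inbred line in which dietary salt raises blood pressure. Telemeters were implanted at 8 to 9 weeks of age, and pressure was recorded for 4 days on 0.4% NaCl. For the next 3 weeks one group ate 4% NaCl with 2% oxonic acid, an inhibitor of the uric acid-degrading enzyme uricase (5 libraries), and the other ate 4% NaCl without it (vehicle, 5 libraries). Every animal in the comparison was therefore salt-loaded, and no library from a low-salt diet entered it. Both sexes were used, without a sex stated for any sample. The kidneys were flushed with PBS before they were taken. The labels do not tie each library to its own rat, so p-values measure the spread between these libraries, part of which may be technical.

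Macrophages depend on Csf1r, a receptor tyrosine kinase, for survival and proliferation. Csf1 and Il34 are its ligands, and in the kidney tubular epithelium is among their sources. The transcription factor PU.1, encoded by Spi1, drives the myeloid program that includes Csf1r. The adhesion receptor Adgre1, CD68, Iba1 (Aif1), lysozyme (Lyz2) and CD11b (Itgam) are used to count these cells, and the mannose receptor (Mrc1) and the haemoglobin scavenger receptor (Cd163) to mark resident or alternatively activated ones.

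Expression is given as FPKM, fragments per kilobase of gene, scaled to library size by the authors. Reads in genes, computed back from FPKM, ranged from 14.5M to 18.5M per library (M, mega). Proximal tubule markers dominated all libraries, with Slc34a1, the phosphate transporter, at 1774 ± 177 FPKM under oxonic acid and 1662 ± 181 FPKM under vehicle (SD, n = 5 each). Both values are high, as is usual for cortex. Oxonic acid library 3 had the highest summed FPKM of 10 inner medulla and thin limb markers, 304.3 against 90.8 to 204.4 in the other 9. Oxonic acid library 1 came next with 204.4, also above the vehicle range of 91.4 to 131.5. These sums are weighted to Aqp2 and Akr1b1, the most abundant genes of that list (means 83.0 and 26.9 FPKM). The share of mitochondrial reads ran from 11.6% to 13.5% under oxonic acid and from 9.23% to 12.1% under vehicle, with overlapping groups. Its part in the results was not tested. Vehicle library 4 had the lowest share and the lowest limma library weight, 0.294. The numbers in the sample descriptions form 3 runs, which the labels do not call batches: run A has 3 libraries, all from oxonic acid rats (0 vehicle), run B has 1 oxonic acid and 3 vehicle libraries, and run C has 1 and 2.

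Mrc1 was the gene of the set that separated the diets. Its transcript was lower in every oxonic acid library than in any vehicle library, at 0.593 of the vehicle mean. Of all 14508 genes tested, 1.91% also had groups that did not overlap, 0.965% lower and 0.944% higher. Csf1r, its ligands and the markers Adgre1, Cd68, Aif1, Lyz2 and Itgam overlapped between diets. The ratio of Mrc1 to Csf1r within a library fell by 0.47 on the log2 scale, with differences of -0.26 and -0.25 within runs B and C. The set was chosen with earlier results of these data known, and that ratio with the low Mrc1 already known. No gene passed when p-values were adjusted over the whole table. In limma's test on log2(FPKM + 0.5), 0 of 14508 genes (0.0%) had an adjusted p under 0.05, and voom on recovered reads also called 0. At an unadjusted p under 0.05 there were 1377 genes (9.49%) in limma, 750 lower (5.17%) and 627 higher, and 1414 in voom. Scaled to summed reads instead, the split was 1190 lower and 383 higher. Of the 10 genes, 9 passed the filter of a mean of 0.5 FPKM, the exception being Cd163. Among these 9, 8 were lower and 1 higher under oxonic acid, 2 (Mrc1 and Lyz2) had an unadjusted p under 0.05, and the median log2 difference was -0.18, against 0.0053 over all genes tested. Of all genes tested, 48.2% were lower. In bulk tissue, fewer cells of a type and less RNA per cell cannot be told apart.

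**Figure D1:**
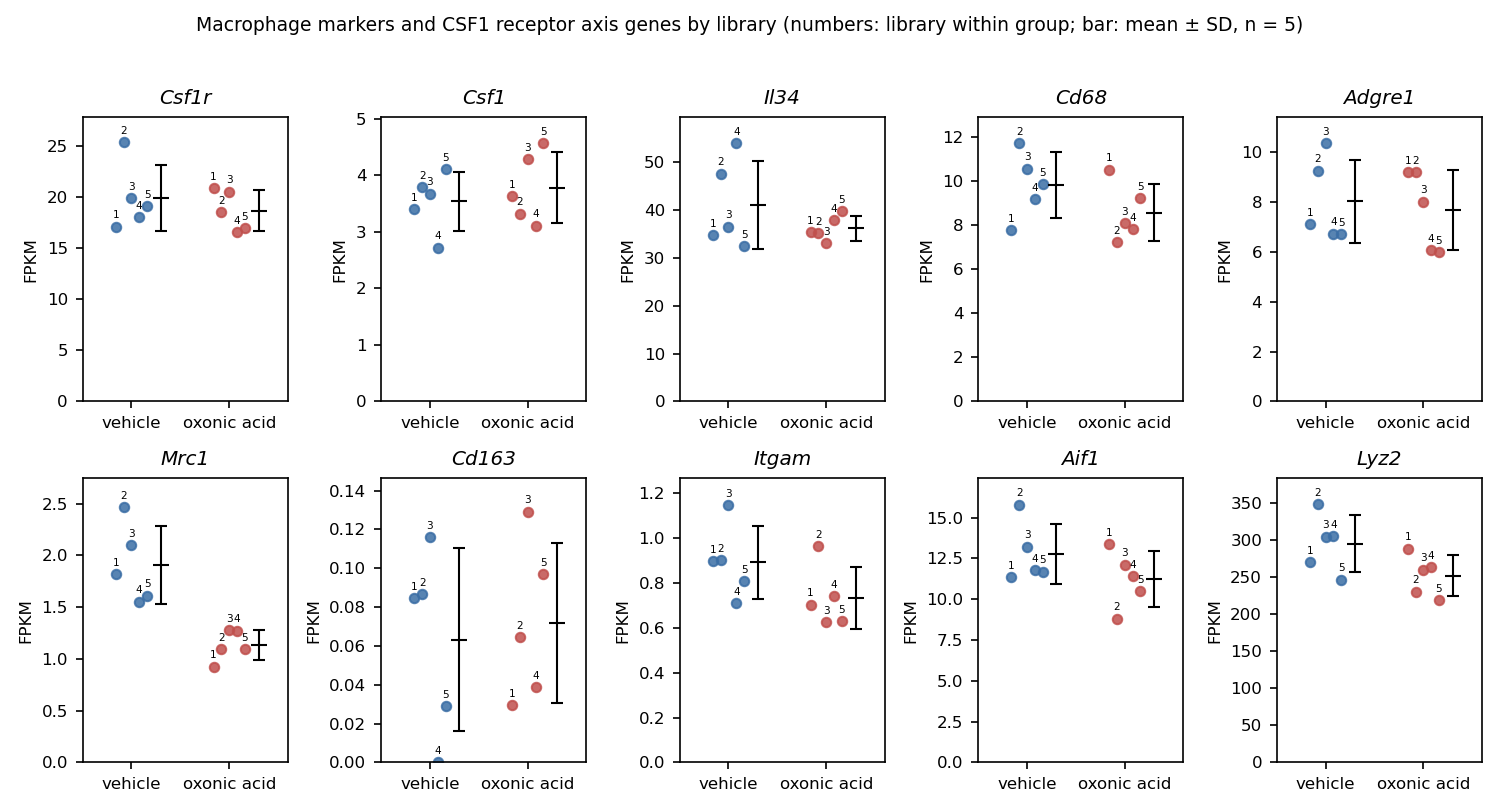
FPKM (vertical axes, each starting at 0) of the 10 genes in the 5 vehicle (blue) and 5 oxonic acid (red) libraries, with the library number above each point and the mean ± SD beside each group. Only for Mrc1 do the groups not overlap, with 0.926 to 1.27 FPKM against 1.55 to 2.47 FPKM.

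Csf1r (ENSRNOG00000018414, chromosome 18, 56414488 to 56458300 by the deposited positions, here and below, with the genome build not given in the sources used here) sits at the centre of the axis. With oxonic acid it measured 20.9, 18.5, 20.5, 16.6 and 16.9 FPKM in libraries 1 to 5. With vehicle it measured 17.1, 25.3, 19.9, 18.0 and 19.1 FPKM. The groups overlapped, and vehicle library 2 was the highest of all. The means were 18.7 ± 1.98 and 19.9 ± 3.22 FPKM (SD, n = 5 each), a log2 difference of -0.08 (95% interval -0.32 to 0.15, limma adjusted p = 0.818). The interval leaves room for a decrease by 0.32 and an increase by 0.15. Within run B the difference was -0.30 and within run C -0.13, with the oxonic acid library below every vehicle library in both. With runs as a block it was -0.22 (limma adjusted p = 0.777). Oxonic acid libraries 1 to 3, the higher ones, are those of run A, which holds no vehicle library. Without vehicle library 2 the difference was 0.0061. That library also had the highest summed FPKM of 10 pan-leukocyte markers, 199.2 against 128.9 to 160.7 in the other 9, and the part of leukocyte content in its Csf1r value was not tested.

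The promoter window of Csf1r, 250 bases before to 50 after the RefSeq start (GRCr8, chr18:56834129-56834428, plus strand), is shown because PU.1 is known to act there. It is printed with that of Mrc1 (GRCr8, chr17:82157475-82157774, plus strand), the gene that separated the diets. Capitals mark the purine-rich word GAGGAA, a form of the core that PU.1 and other ETS factors bind, on either strand (TTCCTC on the strand printed).
Csf1r: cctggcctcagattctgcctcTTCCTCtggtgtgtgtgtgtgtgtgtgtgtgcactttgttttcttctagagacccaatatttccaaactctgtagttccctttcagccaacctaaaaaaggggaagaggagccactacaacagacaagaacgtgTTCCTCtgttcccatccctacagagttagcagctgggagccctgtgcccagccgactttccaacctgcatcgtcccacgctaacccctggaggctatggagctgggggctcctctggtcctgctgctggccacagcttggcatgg
Mrc1: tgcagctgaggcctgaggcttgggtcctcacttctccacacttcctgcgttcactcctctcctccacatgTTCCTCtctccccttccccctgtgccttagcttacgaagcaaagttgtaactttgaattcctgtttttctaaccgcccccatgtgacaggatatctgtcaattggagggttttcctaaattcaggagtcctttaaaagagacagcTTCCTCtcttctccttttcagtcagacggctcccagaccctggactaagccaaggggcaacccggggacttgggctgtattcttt
Both windows held the word 2 times, beginning at -229 and -95 in Csf1r and at -180 and -35 in Mrc1, counted from the start. Promoters of 7 of the 10 genes were in the RefSeq table (Csf1, Il34 and Aif1 were not matched). The word occurred in 6 of the 7, the exception being Cd163, and in 27.6% of 33469 promoters of the same length. Csf1r, Mrc1, Cd68 and Itgam had it 2 times, as did 4.83% of all promoters at least. A match describes the letters only. The shorter words GGAA and TTCC also occur outside the marked places, as in ggggaagagg of the Csf1r window, and were not counted. Spi1 itself measured 6.63 ± 0.728 FPKM under oxonic acid and 8.16 ± 1.11 FPKM under vehicle (SD, n = 5 each; log2 difference -0.28, limma adjusted p = 0.456).

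The ligands differed in level more than either differed between diets. Il34 (ENSRNOG00000017602, chromosome 19, 40855433 to 40904121) was above Csf1 (ENSRNOG00000018659, chromosome 2, 210522375 to 210550560) in every library, with an FPKM 7.74 to 19.9 times as high and a median of 10.1 times. Csf1 measured 3.62, 3.32, 4.28, 3.11 and 4.57 FPKM under oxonic acid and 3.40, 3.79, 3.68, 2.72 and 4.10 FPKM under vehicle. The groups lay across each other, with the highest value in oxonic acid library 5 and the lowest in vehicle library 4. It was the 1 tested gene of the set with a positive log2 difference, 0.08 (95% interval -0.19 to 0.36, limma adjusted p = 0.846). In run B the difference was -0.19 and in run C 0.40, so the sign did not hold within runs. Without vehicle library 4 it was 0.0027, without oxonic acid library 5 0.018, and without oxonic acid library 3 0.039.

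Il34 measured 35.4, 35.2, 33.1, 37.9 and 39.8 FPKM under oxonic acid and 34.8, 47.6, 36.6, 54.0 and 32.4 FPKM under vehicle. The oxonic acid libraries lay close together, whereas vehicle libraries 2 and 4 stood above the other 8. The coefficient of variation was 7.16% under oxonic acid and 22.6% under vehicle, and this difference in spread was not tested. The log2 difference was -0.15 (95% interval -0.44 to 0.13, limma adjusted p = 0.718). It was -0.05 without vehicle library 4, -0.09 without vehicle library 2 and -0.06 with runs as a block. Vehicle libraries 2 and 4 also had the highest summed FPKM of 19 tubular injury genes, 4275 and 4784 against 1380 to 2713 in the other 8. Their Havcr1 (kidney injury molecule) was the highest too, at 39.9 and 38.2 FPKM. The injury sum is weighted to Spp1, its most abundant gene, with a mean of 1517 FPKM over the 10 libraries. The part of tubular injury in the Il34 values was not tested.

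The log2 ratio of Csf1 to Il34 averaged -3.11 ± 0.226 under oxonic acid and -3.35 ± 0.471 under vehicle (SD, n = 5 each). The difference of 0.24 was within the spread (exact two-sided permutation p = 0.373, or 0.413 when adjusted over 3 ratios). Without vehicle library 4 it was 0.05, and within runs B and C it was -0.14 and 0.47. Of the alternative receptors described for Il34, syndecan 1 (Sdc1) measured 8.37 ± 2.19 FPKM under oxonic acid and 7.38 ± 1.39 FPKM under vehicle (SD, n = 5 each). Ptprz1, a receptor phosphatase, was under the filter at 0.248 ± 0.0833 and 0.474 ± 0.0976 FPKM, with groups that did not overlap (0.168 to 0.357 and 0.383 to 0.624 FPKM). It rests on 21 to 93 reads per library and is singled out here after its values were seen. Among all genes tested, which do not include it, 0.965% were lower without overlap. Both receptors lay outside the rule for naming genes.

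Of the lineage markers, Lyz2, the macrophage and neutrophil lysozyme (ENSRNOG00000005825, chromosome 7, 60335969 to 60341264), was by far the most abundant. It measured 288.7, 230.5, 260.3, 263.6 and 218.9 FPKM under oxonic acid and 270.7, 349.3, 305.0, 305.5 and 247.1 FPKM under vehicle. All 5 oxonic acid libraries were below the vehicle median, but oxonic acid library 1 was above vehicle libraries 1 and 5. The means were 252.4 ± 27.9 and 295.5 ± 38.9 FPKM (SD, n = 5 each), a log2 difference of -0.22 (SE 0.10, unadjusted p = 0.0494, limma adjusted p = 0.522). Neutrophil genes under the filter went both ways. S100a8 averaged 0.117 and 0.131 FPKM, S100a9 0.423 and 0.0943, Mmp8 0.0405 and 0.00493, Camp 0.0185 and 0.0686, and Ngp 0.0337 and 0.117. All 15 neutrophil and mast cell markers together summed to 1.79 to 3.63 FPKM under oxonic acid and 1.96 to 2.90 FPKM under vehicle.

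Cd68, a lysosomal glycoprotein of phagocytes (ENSRNOG00000037563, chromosome 10, 56268720 to 56270640), measured 10.5, 7.21, 8.09, 7.80 and 9.22 FPKM under oxonic acid and 7.75, 11.7, 10.5, 9.17 and 9.84 FPKM under vehicle. The lowest value was in oxonic acid library 2, and 4 of 5 oxonic acid libraries were below the vehicle median. Its log2 difference was -0.18 (95% interval -0.45 to 0.08, limma adjusted p = 0.632), and -0.12 without vehicle library 2. Aif1, a calcium-binding protein of activated macrophages (ENSRNOG00000000853, chromosome 20, 5161333 to 5166448), ranged from 8.80 to 13.4 FPKM under oxonic acid and from 11.3 to 15.8 FPKM under vehicle. Its log2 difference was also -0.18 (95% interval -0.44 to 0.08, limma adjusted p = 0.634), and -0.10 without oxonic acid library 2 or without vehicle library 2.

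Adgre1, an adhesion receptor of mature macrophages (ENSRNOG00000046254, chromosome 9, 9431860 to 9585865), measured 9.21, 9.21, 8.01, 6.06 and 5.99 FPKM under oxonic acid and 7.10, 9.25, 10.4, 6.73 and 6.71 FPKM under vehicle. Its log2 difference of -0.06 had an interval of -0.41 to 0.29 (limma adjusted p = 0.921). The oxonic acid libraries of run A, numbers 1 to 3, were the higher ones, and within runs B and C the differences were -0.50 and -0.15. Run A holds no vehicle library, so run and diet cannot be told apart for those 3 libraries. Itgam, the CD11b integrin chain (ENSRNOG00000019728, chromosome 1, 199495298 to 199623960), was low, at 0.732 ± 0.138 and 0.892 ± 0.162 FPKM (SD, n = 5 each; log2 difference -0.18, limma adjusted p = 0.690). Its gene model overlaps that of Itgax, another integrin chain, on the same strand of the deposited table, so its value is uncertain. Without vehicle library 3 the difference was -0.11. Itgax measured 2.98 ± 0.363 and 2.78 ± 0.597 FPKM in the same order.

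**Figure D2:**
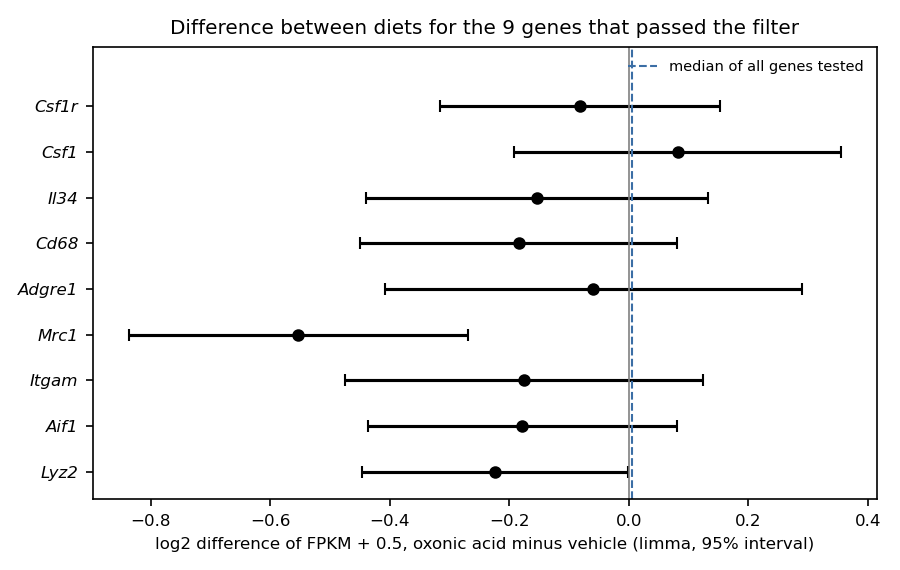
Log2 difference of FPKM + 0.5, oxonic acid minus vehicle (horizontal axis), with limma 95% intervals for the 9 genes that passed the filter. The dashed line is the median of all genes tested, 0.0053, and the intervals of Mrc1 (-0.84 to -0.27) and Lyz2 (upper end -0.00075) lie below 0 before adjustment.

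Mrc1, the mannose receptor (ENSRNOG00000018251, chromosome 17, 81352700 to 81433743), binds glycoproteins and collagen fragments for uptake. It measured 0.926, 1.09, 1.27, 1.27 and 1.09 FPKM under oxonic acid. With vehicle it measured 1.82, 2.47, 2.10, 1.55 and 1.61 FPKM. The highest oxonic acid library was thus below the lowest vehicle library. Non-overlapping groups, lower under oxonic acid, were seen in 0.965% of all genes tested and in 1 of the 9 tested genes of the set (higher, in 0.944% and 0 of 9). The set was chosen with earlier results of these data known, so this count is no independent support. The means were 1.13 ± 0.146 and 1.91 ± 0.378 FPKM (SD, n = 5 each), a log2 difference of -0.55 (SE 0.13, 95% interval -0.84 to -0.27). Its unadjusted p of 0.00127 was number 51 of 14508, and its limma adjusted p = 0.333 did not pass. The pseudocount understates the change of so low a gene: with a pseudocount of 0.1 the log2 difference was -0.70, and voom gave -0.75. The value rests on 77 to 121 reads per oxonic acid library and 125 to 245 per vehicle library. Within run B the log2 difference was -0.56 and within run C -0.39, with the oxonic acid library below all vehicle libraries in both. Without vehicle library 4 and oxonic acid library 3 together it was -0.64.

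Mrc1 fell relative to Csf1r. The log2 ratio of Mrc1 to Csf1r was -3.90, -3.58, -3.57, -3.27 and -3.45 under oxonic acid and -2.92, -3.12, -2.97, -3.17 and -3.22 under vehicle. The groups did not overlap. The difference of -0.47 had an exact permutation p = 0.00794 (two-sided), the smallest that 252 arrangements can give (adjusted p = 0.0238 over the 3 ratios compared). In plain FPKM, Csf1r was 13.0 to 22.5 times as high as Mrc1 under oxonic acid and 9.41 to 11.9 times under vehicle. Within run B the difference of the log2 ratio was -0.26 and within run C -0.25, both smaller than the pooled value. That Mrc1 was low under oxonic acid was known when the ratio was chosen, so this test is no independent support.

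**Figure D3:**
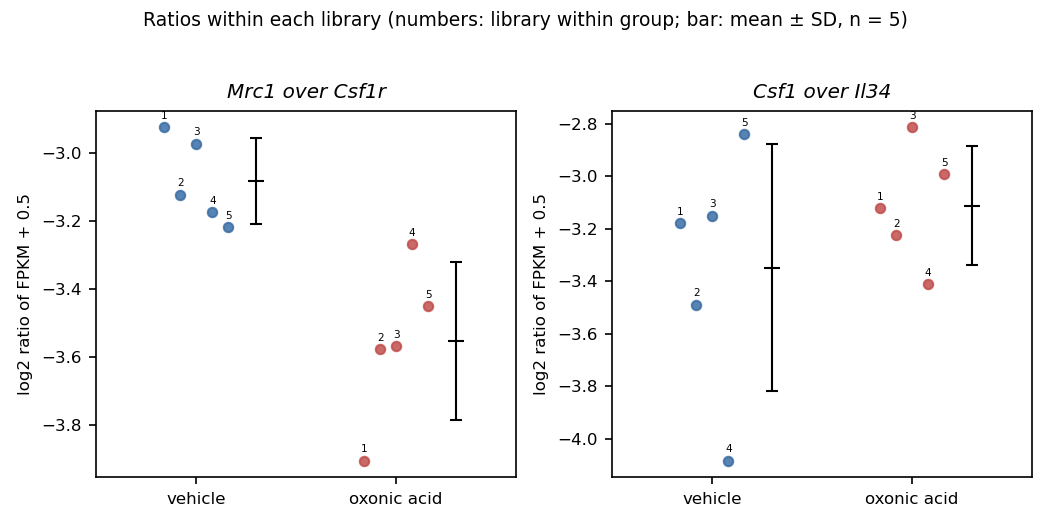
Log2 ratio of FPKM + 0.5 within each library (vertical axes, not starting at 0) for Mrc1 over Csf1r and for Csf1 over Il34, in vehicle (blue) and oxonic acid (red), with library numbers and the mean ± SD. For Mrc1 over Csf1r all 5 oxonic acid libraries, -3.90 to -3.27, lie below the vehicle libraries, -3.22 to -2.92; for Csf1 over Il34 the groups overlap.

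Mrc1 is also made by lymphatic and sinusoidal endothelium. Of 11 lymphatic and blood endothelial markers present, 10 passed the filter, 3 lower and 7 higher under oxonic acid, with a median log2 difference of 0.09. At an unadjusted p under 0.05, 2 of them were higher (4.32% of all genes tested). Their summed FPKM ranged from 149.1 to 182.3 under oxonic acid and from 150.3 to 171.8 under vehicle. The 2 higher genes were Prox1 and Kdr. Prox1, a transcription factor used as a lymphatic marker, measured 1.06 ± 0.386 and 0.570 ± 0.107 FPKM (SD, n = 5 each, log2 difference 0.51, limma adjusted p = 0.445). Its highest values, 1.42 and 1.40 FPKM, were in oxonic acid libraries 1 and 3. These 2 also had the highest inner medulla sums, and the part of medullary content was not tested. Kdr, a VEGF receptor, measured 11.9 ± 0.906 and 9.48 ± 1.88 FPKM (0.33, limma adjusted p = 0.417). Other lymphatic markers went both ways, with Ccl21 at -0.54 and Pdpn at -0.24 (limma adjusted p of 0.594 and 0.603) but Flt4 at 0.12 (0.834). Lyve1, which lymphatic endothelium and some resident macrophages share, measured 4.28 ± 0.766 and 4.23 ± 0.823 FPKM (SD, n = 5 each). Stab2, a sinusoidal scavenger receptor, stayed at 0.0651 to 0.231 FPKM over all 10 libraries. Fibroblast and pericyte markers were lower in 6 of 9, with a median of -0.27, 3 of them at an unadjusted p under 0.05 (5.17% of all genes tested). Their summed FPKM ranged from 251.9 to 377.6 under oxonic acid and from 275.3 to 402.6 under vehicle. Decorin (Dcn), a fibroblast proteoglycan, measured 105.3 ± 13.0 and 135.3 ± 20.4 FPKM (SD, n = 5 each; log2 difference -0.36, limma adjusted p = 0.396). The part of these cell types in the Mrc1 value was not tested.

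Cd163 (ENSRNOG00000010253, chromosome 4, 156752082 to 156785467) was close to the limit of detection. It had 0 to 9 reads per library, 24 in all under oxonic acid and 23 under vehicle, or 0.0718 ± 0.0414 and 0.0633 ± 0.0473 FPKM (SD, n = 5 each). Vehicle library 4 had 0 reads, which allows up to 0.0458 FPKM (3 reads; counting error only). A difference between diets was not detectable at this depth. The log2 ratio of Cd163 to Csf1r, which the pseudocount dominates, differed by 0.11 (exact two-sided permutation p = 0.413, also after adjustment).

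Ordered by mean FPKM over the 10 libraries, the genes ran from Lyz2 (274.0) through Il34 (38.7), Csf1r (19.3), Aif1 (12.0), Cd68 (9.18), Adgre1 (7.86), Csf1 (3.66), Mrc1 (1.52) and Itgam (0.812) to Cd163 (0.0675). Each gene exceeded the next in all 10 libraries, except that Cd68 exceeded Adgre1 in 9. Their neighbouring levels, with a median ratio of 1.20, were thus the least separated.

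Across the 10 libraries, Csf1r was compared with the other 9 genes on log2(FPKM + 0.5). Aif1 had r = 0.75 (permutation p = 0.0167, adjusted p = 0.0633 over the 9 relations) and rho = 0.81 (permutation p = 0.00752, adjusted p = 0.0370). Adgre1 had r = 0.70 (permutation p = 0.0191, adjusted p = 0.0633) and rho = 0.79 (permutation p = 0.00823, adjusted p = 0.0370). Without the 2 libraries farthest from the median of Csf1r, vehicle 2 and oxonic acid 4, r was 0.58 for Aif1 and 0.68 for Adgre1. Cd68 had r = 0.70 (permutation p = 0.0211, adjusted p = 0.0633) and rho = 0.64 (permutation p = 0.0545, adjusted p = 0.163), and r of 0.40 without those 2 libraries. For Lyz2 r was 0.66 (permutation p = 0.0340, adjusted p = 0.0764) and rho 0.45 (permutation p = 0.192, adjusted p = 0.432), with r of 0.41 without them. Mrc1 had r = 0.44 (permutation p = 0.203, adjusted p = 0.366) and rho = 0.24 (permutation p = 0.515, adjusted p = 0.745), and without those 2 libraries r was -0.14. For Aif1, Cd68, Lyz2 and Mrc1, r was thus lower without those 2 libraries. Leaving out the ends of the Csf1r range can lower r by itself. The lower values therefore cannot tell whether the relations rest on those libraries. The remaining 4 genes, Csf1, Il34, Cd163 and Itgam, had r from 0.18 to 0.25 (adjusted p = 0.612). With group means removed, r was 0.74 for Aif1, 0.69 for Adgre1 and 0.48 for Mrc1. The points share libraries and depth, and runs of 3 or 4 libraries are too small for values within runs.

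**Figure D4:**
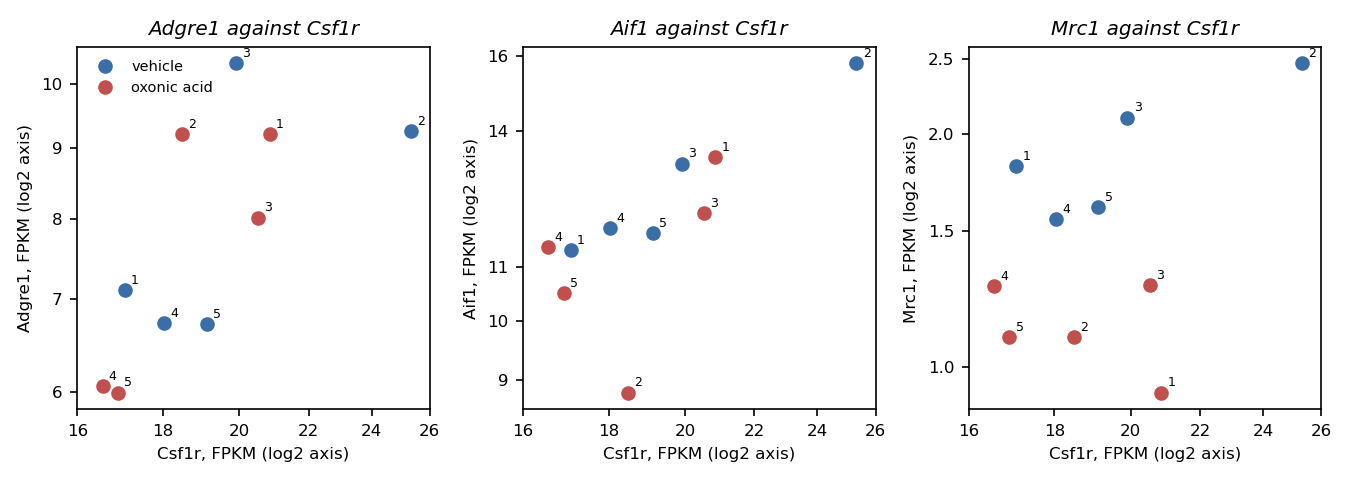
FPKM of Adgre1, Aif1 and Mrc1 (vertical, log2 axes) against Csf1r (horizontal, log2 axis) in the 10 libraries, numbered within vehicle (blue) and oxonic acid (red). Diets mix along the Adgre1 and Aif1 panels (r of 0.70 and 0.75), and in the Mrc1 panel all 5 oxonic acid libraries lie below all vehicle libraries.

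Other macrophage and monocyte markers were lower in most cases. Of 32 symbols 31 were in the table and 26 passed the filter, 21 lower and 5 higher, with a median log2 difference of -0.22. At an unadjusted p under 0.05, 9 of the 26 were lower and 0 higher, against 5.17% lower and 4.32% higher over all genes tested. After adjustment 0 passed. Clec10a, a galactose-type lectin of alternatively activated macrophages and dendritic cells, measured 5.36, 4.32, 6.58, 7.56 and 5.51 FPKM under oxonic acid and 9.39, 11.7, 7.82, 10.0 and 7.57 FPKM under vehicle. It was the 1 tested gene of that list whose groups did not overlap (log2 difference -0.63, limma adjusted p = 0.333), by a margin of 7.56 against 7.57 FPKM. Over all genes tested, 0.965% were lower without overlap. The complement subunits C1qa, C1qb and C1qc, which tissue macrophages make, had log2 differences of -0.31, -0.37 and -0.28 (limma adjusted p of 0.400, 0.333 and 0.516), and Gpnmb, a glycoprotein of lipid-laden macrophages and injured tubule, -0.61 (0.335). The monocyte coreceptor Cd14 had -0.23 (0.577). The fractalkine receptor Cx3cr1 pointed the other way at 0.23 (0.624), and Ccr2, the receptor that brings monocytes into tissue, was under the filter at 0.380 ± 0.233 and 0.404 ± 0.263 FPKM (SD, n = 5 each).

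Signalling genes downstream of and around Csf1r lay nearer to no difference. Of 31 symbols 30 were in the table and 27 passed the filter, 19 lower and 8 higher, with a median log2 difference of -0.04. At an unadjusted p under 0.05, 5 of the 27 were lower and 0 higher (5.17% and 4.32% of all genes tested). Tyrobp, the DAP12 adaptor of myeloid receptors, measured 33.4, 29.0, 34.5, 36.4 and 32.9 FPKM under oxonic acid and 38.3, 52.4, 36.9, 45.1 and 41.2 FPKM under vehicle, without overlap (log2 difference -0.35, limma adjusted p = 0.364). It was the 1 such gene among the 27 tested, and 0.965% of all genes tested were lower without overlap. The kinase subunit Pik3r1 and the adaptor Sla had log2 differences of -0.33 and -0.29 (limma adjusted p of 0.389 and 0.472). Kitlg, ligand of the related receptor Kit, measured 14.3 ± 0.865 and 14.6 ± 1.51 FPKM (SD, n = 5 each). Of 16 myeloid transcription factors 11 were lower and 5 higher (median -0.14), 4 of them lower at an unadjusted p under 0.05 (5.17% of all genes tested). Besides Spi1, Cebpb and Irf5 had log2 differences of -0.37 and -0.32 (limma adjusted p of 0.414 and 0.472). Mean FPKM over the 10 libraries was 7.39 for Spi1, but 89.2 for Maf, 66.0 for Id3 and 52.8 for Cebpb. The part of cells other than myeloid ones in these values was not tested.

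Of 14 inflammatory activation genes present, 10 passed the filter, 8 lower and 2 higher (median -0.13). The 1 with an unadjusted p under 0.05 was Irf5 at -0.32 (limma adjusted p = 0.472), which also belongs to the transcription factor list. Socs3 was at -0.50 and Cxcl10 at -0.31 (limma adjusted p of 0.603 and 0.594). Tnf, Il6 and Il12b were among the 4 under the filter. Of 14 alternative activation genes 10 passed, 7 lower and 3 higher (median -0.07), and the 1 with an unadjusted p under 0.05 was Clec10a, which also belongs to the macrophage list. For both activation lists, 1 of 10 is close to the share over all genes tested, 9.49% in either direction (5.17% lower). Retnla was listed at 0 in all libraries. Of pan-leukocyte markers 9 of 9 had a lower mean (median -0.20) and 0 passed, the smallest p being that of Laptm5, a lysosomal membrane protein, at -0.34 (limma adjusted p = 0.335), with Ptprc (CD45) at -0.23 (0.566). All 7 tested T, NK and B cell markers had lower means (median -0.40), as did 6 of 7 dendritic cell markers (median -0.10), and 0 passed. At an unadjusted p under 0.05, 3 of the 7 T, NK and B cell, 3 of the 9 pan-leukocyte and 1 of the 7 dendritic cell markers were lower. In these lists 0 were higher, against 5.17% lower and 4.32% higher over all genes tested. Lower values were thus not particular to macrophage markers. Of neutrophil and mast cell markers 2 were tested, 1 lower and 1 higher (median -0.04). Ccr7, the lymph node homing receptor, measured 0.447 ± 0.126 and 0.822 ± 0.210 FPKM without overlap (SD, n = 5 each; limma adjusted p = 0.416). It was the 1 such gene among the 7 tested dendritic cell markers (0.965% lower without overlap over all genes tested).

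**Figure D5:**
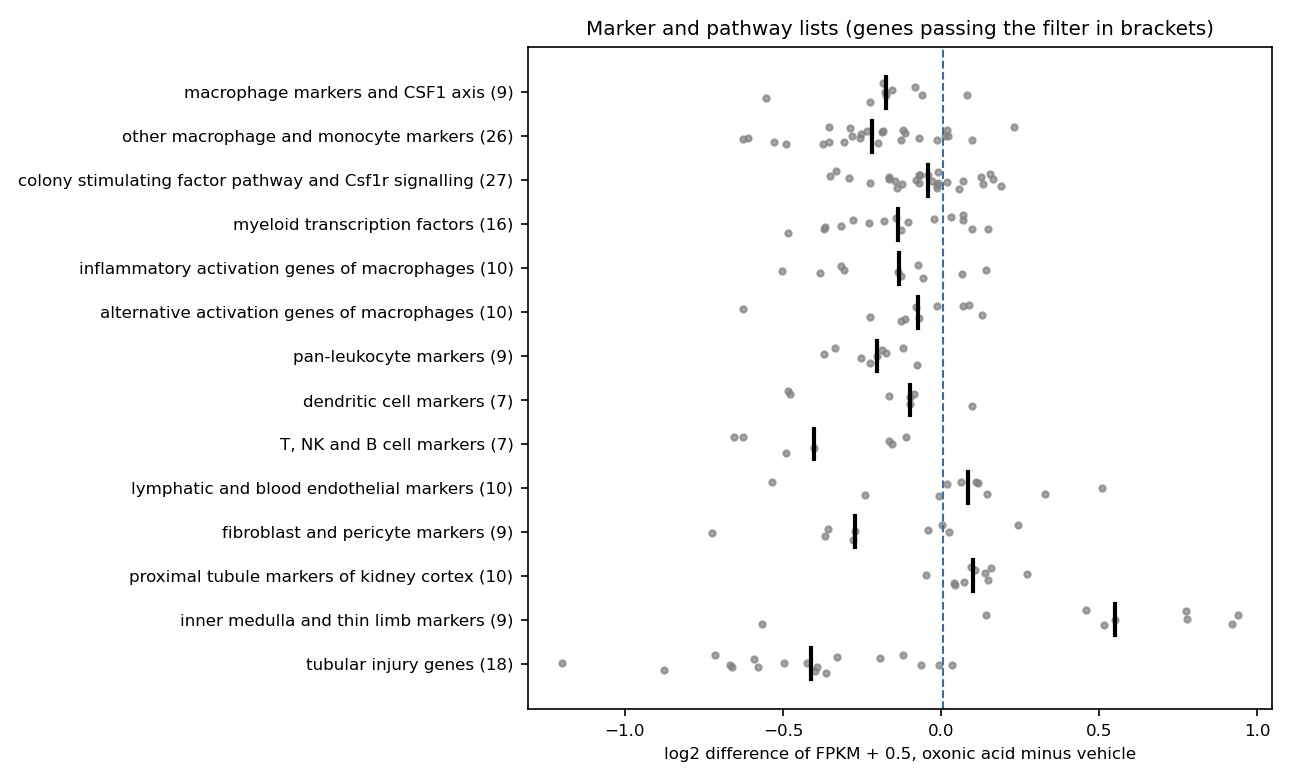
Log2 difference of FPKM + 0.5, oxonic acid minus vehicle (horizontal axis), for each gene that passed the filter (grey points, scattered vertically for visibility) in 14 lists, with the list median (black bar) and the median of all genes tested (dashed line, 0.0053). The median of macrophage markers is -0.22, of the 9 genes described here -0.18, of tubular injury genes -0.41 and of inner medulla markers 0.55.

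Tubular injury genes pointed in the same direction as the macrophage genes. Of 18 tested 17 were lower (median -0.41), 12 at an unadjusted p under 0.05 (5.17% of all genes tested). Their summed FPKM, in which Spp1 weighs most, ran from 1380 to 2396 under oxonic acid and from 2267 to 4784 under vehicle. Proximal tubule markers were higher in 9 of 10 (median 0.10). The part of tubular state and of tissue composition in the macrophage values was not tested.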

How the data were processed

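Poly-A RNA libraries from 10 kidney cortex samples took their groups from the treatment label, and each column its sample from the library name in the description. The deposited values are FPKM computed by the authors; featureCounts 1.5.0-p3, StringTie 1.3.3b, HISAT2 2.0.5 and fastp are named, without roles, in the submitters' processing notes. Genome build, annotation and strand setting: not given in the sources used here. The deposited table also gives the gene length in bases, used to recover reads; 100% of values were within 0.01 of a whole read, and the authors' library size was 0.977 to 1.04 times the summed reads. No 2 libraries agreed within sampling noise (lowest chi-square per degree of freedom 4.79).

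Genes with a mean of at least 0.5 FPKM (14508 of 32545) were tested on log2(FPKM + 0.5) with limma 3.58.1 (mean-variance trend, R 4.3.3), two-sided, with Benjamini-Hochberg adjustment over all of them and a threshold of 0.05. The procedure was tested on simulated data. Alternatives were other pseudocounts, filters and scalings, voom on recovered reads, array weights, blocks, and each library left out. Ratios within libraries used exact permutation tests (Python 3.11.15). Lists are described by counts and medians only. The 10 genes, the lists and the rule for naming genes (all 10, up to 3 genes of smallest p per list, and a fixed set including Spi1, Tyrobp, Kitlg, Ptprc and the C1q genes) were chosen with earlier results of these data known; not all genes the rule selects are printed. Correlations with Csf1r were added later. Libraries with the same number did not deviate together as pairs. Promoters are from RefSeq (GRCr8).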

Additional observations from a re-analysis of the deposited data

How the results depend on the processing

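Of 179 alternative values for the 9 tested genes, 174 kept the direction and missed the threshold, with limma adjusted p from 0.167 to 0.996, and 5 changed sign, all of them close to 0. Csf1r went to 0.0061 without vehicle library 2 (-0.13 to 0.0061 with 1 library left out). Adgre1 went to 0.015 without oxonic acid library 4, 0.019 without oxonic acid library 5 and 0.033 without vehicle library 3 (-0.13 to 0.033 with 1 library left out). Csf1 went to -0.040 without vehicle library 4 and oxonic acid library 3 together, a setting chosen after seeing the data. Mrc1 kept its direction, from -0.75 (voom) to -0.44 (pseudocount 1), and -0.61 to -0.47 with 1 library left out. No alternative called any of the 10 genes. Over all genes 1 was called with array weights (Tap2), and 0 to 1 with 1 library left out (SNORA3 without vehicle library 1). Genes lower at an unadjusted p under 0.05 numbered 750, 1190 when scaled to summed reads and 469 with runs as a block. The count of genes of the set lower at an unadjusted p under 0.05 was 2, and 1 without a filter and without vehicle library 4 and oxonic acid library 3 together; with 1 library left out it was 1 to 3. The replicate numbers do not pair the libraries (correlations of same-numbered deviations -0.013 to 0.203). With the replicate number as a block, the log2 ratio of Mrc1 to Csf1r differed by -0.47 with an exact sign-flip permutation p = 0.0625, the smallest 5 pairs can give, and no gene of the set was called. With 1 library left out that ratio differed by -0.54 to -0.38. Depth limits Cd163, Itgam and Mrc1 most. A filter of 1 FPKM left no value for Itgam and Cd163, and voom, array weights and runs as a block none for Cd163.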

Other observations

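Genes whose values went most nearly in parallel with each gene were taken from 11814 genes, over 10 libraries, by Pearson's r on log2(FPKM + 0.5) after removal of group means. The highest of so many values are large by selection, and they are given as a description. For Mrc1 they were Dcn (0.95), Map1b (0.93), Axl (0.92), a receptor tyrosine kinase for dying cells, and Mllt6 (0.91). For Csf1r they were the thrombin receptor F2r (0.96), Kdelr3 (0.95), Fcer1g (0.95), the signalling chain of Fc receptors, and the lectin Clec4a1 (0.92). For Cd68 they were Hmgb2 (0.93), Cks1b (0.91), Rgs18 (0.91) and Grk6 (0.90), and for Il34 Cnbp (0.97), Pdcd10 (0.94), Hmgn1 (0.94) and Spata24 (0.93). For Csf1 they were U6 (0.94; a small nuclear RNA with many near-identical copies, hence uncertain), Nusap1 (0.94), Spn (0.94) and Srrt (0.93).

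The microRNA gene Mir511 lies inside Mrc1 on the same strand in the deposited table and was listed at 0 in all 10 libraries, which were made from poly-A RNA.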
